A study of Homo sapiens with 15 samples.

Results

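Transcript levels of 32 listed genes of cholesterol and fatty acid synthesis were examined in A673 cells, an established Ewing sarcoma line that carries the EWS/FLI fusion. The list holds 18 enzymes of the cholesterol arm, 9 enzymes of the fatty acid arm, and 5 genes that regulate or carry sterols (SREBF1, SREBF2, INSIG1, SCAP and STARD4). It was matched by symbol to the Ensembl identifiers of a table of 57820 genes. The matching rule used no measured value, but the genes were chosen with earlier results of these data known. A row was found for 31 of the 32 genes, namely all 18 cholesterol enzymes, 8 fatty acid enzymes and all 5 regulators, and all 31 passed the filter of a mean of at least 1 count per library. ACACA, acetyl-CoA carboxylase 1, was not matched and has no value here.

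The data are RNA-seq read counts from 15 libraries, with 3 for each of 5 conditions of a knockdown/rescue design. Cells named iLuc carried a luciferase shRNA with an empty vector and kept endogenous EWS/FLI (endo-EF). Those named iEF carried an shRNA that targets EWS/FLI, also with an empty vector. The 3 rescued conditions carried that same iEF shRNA with a cDNA for wild-type EWS/FLI (WT-EF), for Δ22 or for DAF. Δ22 lacks nearly all of the EWS domain. In DAF a part of the tyrosines of that domain, towards its amino-terminal end, are alanines. All cells were transduced with retrovirus and selected with puromycin and hygromycin B, so that each library is a selected pool of 1 line, and the questions were what loss of EWS/FLI does and which form of it restores expression. Because iLuc is the only condition without the iEF shRNA, the shRNA itself and the loss of endo-EF cannot be told apart when iLuc is set against the others.

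Cholesterol is made from acetyl-CoA through the mevalonate pathway, squalene and a series of sterol intermediates, whereas fatty acids are built from malonyl-CoA by fatty acid synthase and then elongated and desaturated. Both arms are controlled by the SREBP transcription factors, which SCAP escorts out of the endoplasmic reticulum when sterols are low and which INSIG1 holds back when sterols are plentiful. SREBF2 is best known for the cholesterol arm and SREBF1 for the fatty acid arm, and SREBPs bind sterol regulatory elements, often beside a CCAAT box bound by NF-Y.

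Library totals were between 28659475 and 41859880 counts. FLI1, whose reads come from both endo-EF and the cDNAs, was at 47.99, 47.8 and 52.4 CPM, that is counts scaled to a common library size, in iLuc, 12.9, 15.5 and 15.3 in iEF, 16.03, 18.02 and 18.7 in WT-EF, 24.4, 32.9 and 36.2 in Δ22 and 22.1, 23.6 and 27.3 in DAF. The 3 iLuc libraries were thus above all others, while WT-EF exceeded iEF by a log2 difference of 0.27 ± 0.10 (SE), adjusted p 0.0538. The iEF shRNA targets the 3′UTR of EWS/FLI. Reads from untranslated parts may come from endo-EF alone, so FLI1 counts may not measure iLuc and the rescued cells alike. Of the Ewing sarcoma markers examined, CCND1, PRKCB, STEAP1, NR0B1, LIPI and NKX2-2 were detected. CD99 had counts at or near 0 in every condition, and whether they reflect its expression or the mapping of its reads was not tested. Markers of blood, epithelial and liver cells stayed at or below a condition mean of 0.823 CPM. That highest mean was of EPCAM, an epithelial marker, which was at 0.642, 0.842 and 0.985 CPM in iLuc, 0.0788, 0.135 and 0.145 in iEF and 0.332, 0.344 and 0.320 in WT-EF, was called higher than iEF in both (2.76 ± 0.42 (SE), adjusted p 7.51e-05, and 1.46 ± 0.45 (SE), adjusted p 0.0239) and lower in WT-EF than in iLuc (-1.29 ± 0.35 (SE), adjusted p 0.0180), while CDH1, PTPRC, CD3E and ALB were not called or too low to test in these comparisons. Its part in the results below was not tested. Among the 31 genes, iEF replicate 2 was the highest iEF library for 29 and WT-EF replicate 3 the highest WT-EF library for 25.

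The promoters of the listed genes share sequence features that the choice of genes did not use. RefSeq promoter windows (GRCh38.p14, from 250 bases before to 50 after a start) were at hand for 28 of the 32 genes, and a CCAAT box on either strand (CCAAT or ATTGG) lay in 21 of these 28, or 75.0%, against 39.7% of 27305 genes with a window and 42.1% of 15843 protein-coding genes. By arm, 13 of 15 cholesterol enzymes, 5 of 8 fatty acid enzymes and 3 of 5 regulators held one. The following stretches show the boxes of genes picked as examples from the cholesterol arm and the regulators, each read 5′ to 3′ on the gene's own strand, with CCAAT boxes and matches to CACNCCAC or its reverse complement in capitals.
SREBF2 promoter: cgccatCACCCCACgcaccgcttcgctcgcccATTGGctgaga
INSIG1 promoter: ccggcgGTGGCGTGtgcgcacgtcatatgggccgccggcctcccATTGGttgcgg
STARD4 promoter: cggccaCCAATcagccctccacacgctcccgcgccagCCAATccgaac
HMGCS1 promoter: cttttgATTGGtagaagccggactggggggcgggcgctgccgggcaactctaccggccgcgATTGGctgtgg
MSMO1 promoter: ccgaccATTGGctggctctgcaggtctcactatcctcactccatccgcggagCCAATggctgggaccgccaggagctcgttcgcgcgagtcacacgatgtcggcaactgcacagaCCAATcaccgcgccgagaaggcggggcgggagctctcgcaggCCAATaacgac
TM7SF2 promoter: gcgccgATTGGctggtg
DHCR7 promoter: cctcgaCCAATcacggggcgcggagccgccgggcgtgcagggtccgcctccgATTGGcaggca

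In that order the stretches lie at chr22:41832967-41833009 (plus strand), chr7:155297664-155297718 (plus), chr5:111512655-111512702 (minus), chr5:43313502-43313573 (minus), chr4:165327478-165327645 (plus), chr11:65111792-65111808 (plus) and chr11:71448431-71448493 (minus), all upstream of the annotated start. MSMO1 holds 4 boxes, HMGCS1, STARD4 and DHCR7 hold 2 each, and SREBF2 and INSIG1 hold 1 box and 1 CACNCCAC match each. The longer sterol regulatory element TCACNCCAC was found in 1 of the 28 genes, SREBF2, against 1.39% of all genes. Its shorter core CACNCCAC, searched after the longer form gave 1 match, was found in 6 of 28 (ACACA, IDI1, INSIG1, SC5D, SCD and SREBF2), or 21.4%, against 7.05% of all genes. An ETS site, CCGGAAGT, was found in IDI1 and a pair of GGAA repeats, GGAAGGAA, in SC5D, 1 gene each against 4.95% and 4.50% of all genes. A match describes letters in a window and is not a bound site.

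The first comparison asked how the genes differ between cells with endo-EF and cells with the iEF shRNA. In iLuc, 25 of the 31 genes were higher than in iEF and none was lower at an adjusted p under 0.05 (called, in what follows), whereas 19.5% of the 28793 genes tested were called higher and 22.1% lower. Among the 8285 genes with a mean of at least 500 counts, 27.3% were higher and 38.1% lower. The 25 genes comprised 16 of 18 cholesterol enzymes, 7 of 8 fatty acid enzymes and 2 of 5 regulators, and the median log2 fold change was 1.02 in both enzyme arms and 0.46 for the regulators, against 0.04 over all genes tested. At an unadjusted p under 0.05, 26 genes were higher and 1, AACS, was lower, and DESeq2 called 26 higher and 0 lower. More than a 2-fold difference was reached by 15 genes. In either direction it was reached by 10848 of the 28793 genes tested and by 1728 of the 8285 with a mean of at least 500 counts. In each of the 3 replicate sets, 28 genes were higher in iLuc. For 23 of the 31 genes all 3 iLuc libraries lay above all 12 other libraries. The share of all genes that did so, or that were higher in each replicate set, was not computed. In bulk RNA, a change in level per cell and a change in which cells make up the pool cannot be told apart.

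**Figure D1:**
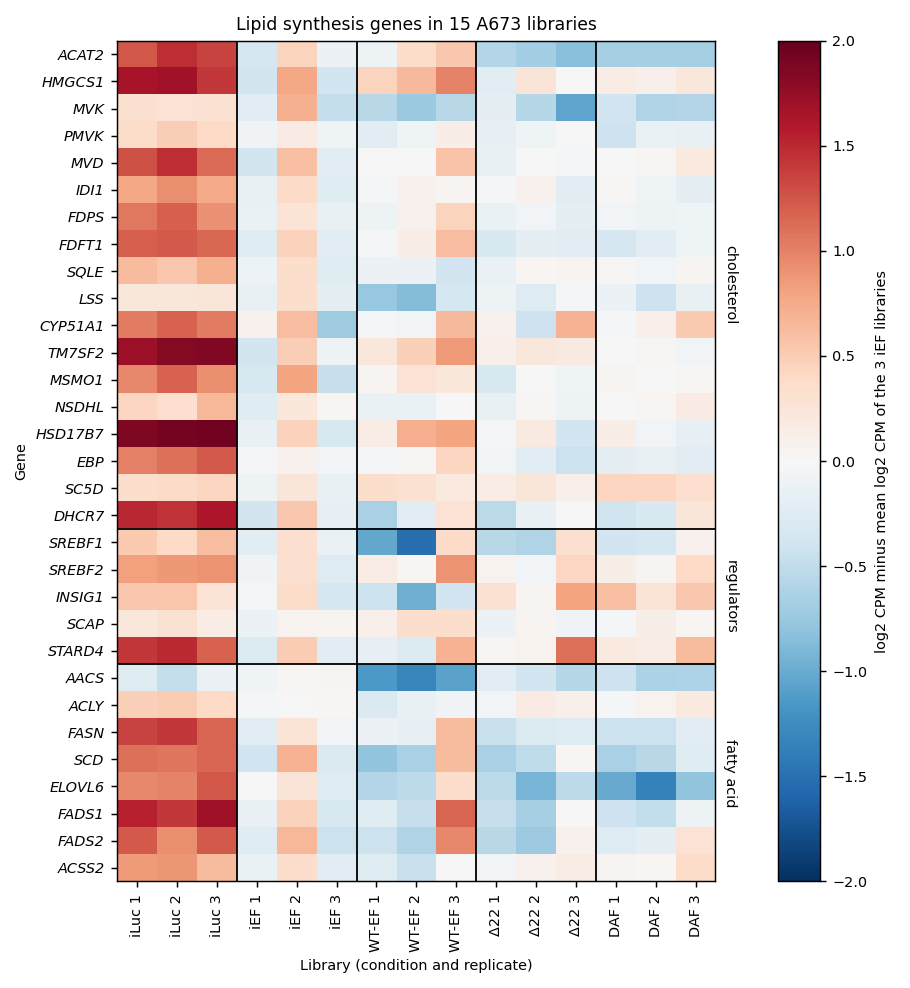
Heat map of 31 genes (rows, grouped by arm) in 15 libraries (columns, 3 per condition), where colour gives log2 CPM minus the mean log2 CPM of the iEF libraries. The iLuc columns are high for most genes of both arms, and iEF replicate 2 and WT-EF replicate 3 stand above the other libraries of their condition.

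Among the enzymes that open the cholesterol arm, ACAT2, which joins acetyl-CoA units, was at 147, 174 and 159 CPM in iLuc and 49.5, 84.6 and 57.7 CPM in iEF. The iLuc libraries did not overlap those of iEF, with a log2 fold change of 1.34 ± 0.16 (SE), adjusted p 6.38e-06. HMGCS1, which makes HMG-CoA, stood at 208, 212 and 177 CPM in iLuc and at 50.98, 113 and 50.8 CPM in iEF. All iLuc libraries were again above iEF, although iEF replicate 2 stood above the other iEF libraries, and the log2 fold change was 1.53 ± 0.22 (SE), adjusted p 4.24e-05. In GENCODE on GRCh37, which is not the authors' annotation, exons of ACAT2 and HMGCS1 overlap genes on the opposite strand over 22.2% and 37.7% of their bases. How strand was used in the counting is not given in the sources used here.

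The enzymes that carry mevalonate to squalene were higher in iLuc except for MVK. Log2 fold changes were 0.41 ± 0.13 for PMVK (phosphomevalonate kinase), 1.26 ± 0.20 for MVD (mevalonate diphosphate decarboxylase), 0.81 ± 0.11 for IDI1 (isopentenyl diphosphate isomerase), 1.05 ± 0.13 for FDPS (farnesyl diphosphate synthase) and 1.17 ± 0.16 for FDFT1 (squalene synthase), all called. MVK, mevalonate kinase, held 17.9, 17.6 and 17.8 CPM in iLuc and 12.2, 23.4 and 10.4 CPM in iEF. Here iEF replicate 2 was above every iLuc library, so that the conditions overlapped, and the log2 fold change of 0.25 ± 0.23 (SE), adjusted p 0.432, did not pass.

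Squalene is turned into lanosterol by SQLE, the squalene epoxidase, which was higher in iLuc by 0.62 ± 0.13 on the log2 scale, and by LSS, lanosterol synthase, which was at 80.6, 81.04 and 81.6 CPM in iLuc and 62.2, 88.4 and 60.1 CPM in iEF. The LSS values overlapped through iEF replicate 2, and the difference of 0.20 ± 0.15 (SE), adjusted p 0.315, did not pass. Among the enzymes that remodel lanosterol, the largest log2 fold change of any listed gene belonged to HSD17B7, the 3-ketosterol reductase (ENSG00000132196, chr1:162760492-162782613, GRCh37). HSD17B7 was at 42.2, 43.6 and 43.9 CPM in iLuc and 10.4, 15.95 and 9.28 CPM in iEF, with no overlap and a log2 fold change of 1.89 ± 0.19 (SE), adjusted p 1.28e-06. Its value is uncertain to the extent that reads are shared with a near-identical pseudogene. TM7SF2, a sterol C14 reductase, followed, at 18.1, 19.6 and 19.9 CPM in iLuc and 4.23, 7.76 and 5.15 CPM in iEF. Again the conditions did not overlap, and the log2 fold change was 1.77 ± 0.18 (SE), adjusted p 1.40e-06.

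DHCR7, the reductase that yields cholesterol in the last step, was at 91.7, 88.001 and 99.4 CPM in iLuc and 24.99, 46.9 and 28.97 CPM in iEF. The lowest iLuc library was above the highest iEF library, with a log2 fold change of 1.49 ± 0.19 (SE), adjusted p 1.91e-05. SC5D, lathosterol oxidase, differed less, at 88.9, 90.7 and 93.6 CPM in iLuc and 64.9, 82.2 and 62.9 CPM in iEF. These values did not overlap either, and the log2 fold change was 0.39 ± 0.09 (SE), adjusted p 0.00233. The other enzymes of late sterol synthesis were called at log2 fold changes of 0.98 ± 0.33 for CYP51A1 (lanosterol demethylase), 0.97 ± 0.19 for MSMO1 (sterol C4 methyl oxidase), 0.48 ± 0.10 for NSDHL (sterol C4 decarboxylase) and 1.11 ± 0.13 for EBP (sterol isomerase). In GENCODE on GRCh37, CYP51A1 and EBP share 68.2% and 36.4% of their exon bases with other genes on the same strand. Whether those genes were in the authors' annotation, and so affected the counts, was not checked. CYP51A1 also had few counts, at 79, 96 and 82 in iLuc, and the lowest level per kilobase of the list, so that its value is the least certain.

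In the fatty acid arm the desaturase FADS1 had the largest difference, at 1201, 1090.1 and 1311 CPM in iLuc and 367, 561 and 327 CPM in iEF. Each iLuc library was above each iEF library, with a log2 fold change of 1.48 ± 0.29 (SE), adjusted p 0.000797. FASN, fatty acid synthase, was at 247, 257 and 218 CPM in iLuc and 82.7, 117 and 93.3 CPM in iEF. The FASN values did not overlap and gave a log2 fold change of 1.31 ± 0.17 (SE), adjusted p 1.52e-05. ELOVL6, which elongates palmitate, was at 47.7, 48.4 and 57.7 CPM in iLuc and 24.2, 29.3 and 20.5 CPM in iEF. Its iLuc libraries were all higher, with a log2 fold change of 1.03 ± 0.20 (SE), adjusted p 0.000676. ACSS2, which makes acetyl-CoA from acetate, was at 31.7, 32.5 and 27.3 CPM in iLuc and 16.1, 22.6 and 15.04 CPM in iEF, again without overlap, and differed by 0.77 ± 0.16 (SE), adjusted p 0.00112.

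The remaining fatty acid enzymes were ACLY, SCD, FADS2 and AACS. ACLY, which makes cytosolic acetyl-CoA from citrate, was called at a log2 fold change of 0.46 ± 0.08, SCD, the stearoyl-CoA desaturase, at 1.04 ± 0.29, and FADS2, the desaturase encoded beside FADS1, at 1.01 ± 0.33. AACS, which activates acetoacetate for lipid synthesis, was the only listed gene whose fitted level was lower in iLuc, at 23.96, 20.3 and 26.1 CPM against 26.8, 28.9 and 29.2 CPM in iEF. All 3 iLuc values of AACS were below those of iEF, but the log2 fold change of -0.28 ± 0.12 (SE), adjusted p 0.0729, did not pass.

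Of the regulators, STARD4, a cytosolic sterol transfer protein, was at 144, 150.3 and 121 CPM in iLuc and 44.2, 76.5 and 45.6 CPM in iEF, without overlap and with a log2 fold change of 1.33 ± 0.27 (SE), adjusted p 0.000941. SREBF2, which encodes SREBP-2 (ENSG00000198911, chr22:42229109-42303310, GRCh37), was at 125, 129.5 and 133 CPM in iLuc and 68.1, 89.4 and 59.4 CPM in iEF. Its conditions were separate, and the log2 fold change was 0.83 ± 0.18 (SE), adjusted p 0.00193. SREBF1 (ENSG00000072310, chr17:17713713-17740316, GRCh37) was at 82.6, 76.1 and 88.8 CPM in iLuc and 50.03, 73.1 and 52.5 CPM in iEF. The SREBF1 values did not overlap, yet iEF replicate 2 came close to iLuc and the difference of 0.46 ± 0.28 (SE), adjusted p 0.215, did not pass. INSIG1 overlapped between iLuc, at 130.2, 131 and 108 CPM, and iEF, at 87.2, 116 and 70.6 CPM, and its log2 fold change of 0.42 ± 0.21 (SE), adjusted p 0.116, did not pass either. SCAP differed by 0.23 ± 0.09 (SE), adjusted p 0.0629, and was not called.

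Adjusted p-values come from the quasi-likelihood test of edgeR, with adjustment by Benjamini-Hochberg over all 28793 genes. They set a difference against a spread fitted for each gene over all 15 libraries, not over the compared conditions alone. Each condition has 3 libraries of 1 line, so they speak for these samples only. Without iEF replicate 2 the count of genes called higher in iLuc was 29, with MVK (0.67), LSS (0.46), SREBF1 (0.83) and INSIG1 (0.73) among them, without replicate 1 of every condition it was 18, and 18 genes kept their call under all 17 alternative settings.

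**Figure D2:**
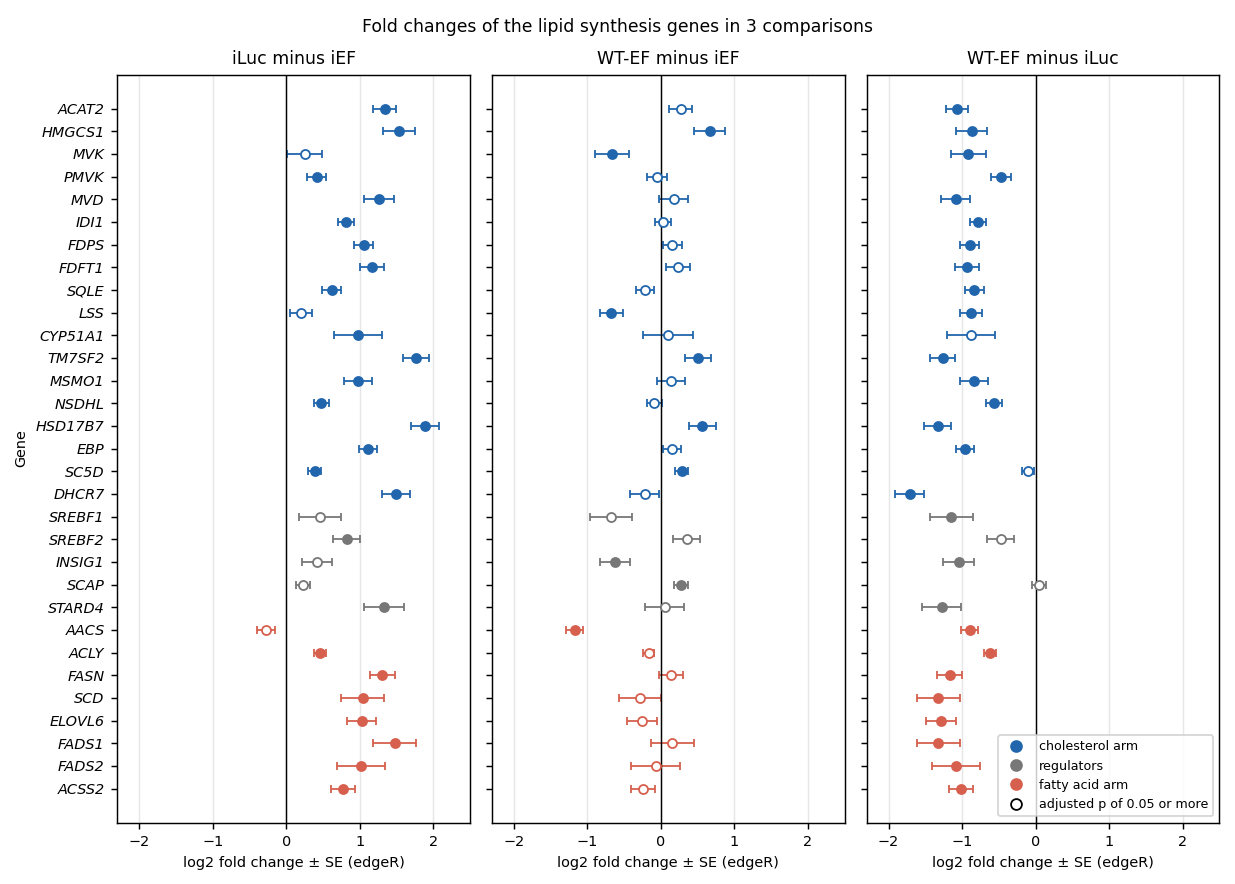
Log2 fold change ± SE (n = 3 libraries per condition) of each of 31 genes for iLuc against iEF, WT-EF against iEF and WT-EF against iLuc, with filled points where the adjusted p was under 0.05. Most genes of both arms lie above 0 in the first panel, around 0 in the second and below 0 in the third, where 27 of 31 are called lower.

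Levels per kilobase of exon, a rough way to set genes beside each other, were highest in iLuc for FADS1 (117 ± 10.8 CPM per kb, SD, n = 3) and SCD (104 ± 3.51). MSMO1 (60.8 ± 5.85), ACAT2 (60.5 ± 5.20), FDFT1 (59.0 ± 1.80) and ACLY (58.4 ± 2.19) followed and were within their spread of each other. The transcription factor genes were lower, with SREBF2 at 16.1 ± 0.469 and SREBF1 at 10.02 ± 0.774 CPM per kb. At the low end were MVK (1.97 ± 0.0196), AACS (1.46 ± 0.185) and CYP51A1 (0.604 ± 0.0365). Exon lengths came from GENCODE on GRCh37, not from the authors' annotation. They join all annotated exons of a gene and are not transcript lengths, such as 16039 bases for AACS, 9018 for MVK and 1002 for PMVK. The order of genes, and its low end, therefore depends on the annotation.

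The rescue with WT-EF was then compared with both controls, which asks how far the cDNA brings the listed genes to the level of cells with endo-EF. Against iLuc, WT-EF cells had 27 of the 31 genes called lower and none called higher, where 9.03% of all genes tested were called lower and 10.7% higher. Among the 8285 genes with a mean of at least 500 counts, 16.0% were lower and 21.3% higher. The lower genes were 16 of 18 cholesterol enzymes, all 8 fatty acid enzymes and 3 of 5 regulators. Median log2 fold changes were -0.89 for the cholesterol arm, -1.13 for the fatty acid arm and -1.05 for the regulators, against -0.01 over all genes tested (-1.06 and -1.47 for the enzyme arms without WT-EF replicate 3). In each of the 3 replicate sets, 29 genes were lower, a count for which the share of all genes was not computed. At an unadjusted p under 0.05 the count was 29 lower and 0 higher, and DESeq2 gave 27 lower and 0 higher. The 4 genes not called were SC5D, CYP51A1, SREBF2 and SCAP. The FLI1 counts of WT-EF differed from those of iLuc by -1.49 ± 0.10 on the log2 scale. Reads from untranslated parts may come from endo-EF alone, so this value does not show how much EWS/FLI the WT-EF cells held. The part of FLI1 in the differences above was not tested. Among the other Ewing sarcoma markers, WT-EF exceeded iEF by 3.76 ± 0.27 (SE), adjusted p 2.61e-07, for PRKCB, 4.48 ± 0.36 (SE), adjusted p 5.05e-07, for LIPI, 3.13 ± 0.38 (SE), adjusted p 2.06e-05, for NR0B1 and 1.82 ± 0.11 (SE), adjusted p 5.87e-08, for STEAP1. NKX2-2 also rose (1.32 ± 0.25 (SE), adjusted p 0.000958) and CCND1 did not pass the test (0.20 ± 0.12 (SE), adjusted p 0.245). Against iLuc, NR0B1 (-0.21 ± 0.34 (SE), adjusted p 0.745), STEAP1 (-0.16 ± 0.10 (SE), adjusted p 0.331), PRKCB (-0.63 ± 0.24 (SE), adjusted p 0.0849) and LIPI (-0.72 ± 0.30 (SE), adjusted p 0.116) did not pass the test, and NKX2-2 was lower (-1.14 ± 0.23 (SE), adjusted p 0.00277).

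Against iEF, by contrast, WT-EF had 5 of 31 genes called higher and 4 called lower, shares close to those of all genes tested, of which 12.9% were higher and 17.0% lower (19.5% and 31.9% of the genes with a mean of at least 500 counts). Median log2 fold changes were 0.14 for the cholesterol arm, -0.20 for the fatty acid arm and 0.05 for the regulators, against -0.01 over all genes. The medians depended on single libraries, being 0.36 (cholesterol) and 0.13 (fatty acid) without iEF replicate 2, and -0.03 and -0.43 without WT-EF replicate 3. The higher genes were 4 cholesterol enzymes (HMGCS1, TM7SF2, HSD17B7 and SC5D) and SCAP, and the lower genes were MVK, LSS, INSIG1 and AACS. The iEF libraries are shared between this comparison and that of iLuc against iEF, and the WT-EF libraries between this one and that against iLuc, so that the comparisons are not independent of each other.

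HMGCS1 was at 90.8, 104 and 132 CPM in WT-EF, which overlapped iEF only through iEF replicate 2 and lay below every iLuc library. Its log2 fold change was 0.66 ± 0.21 (SE), adjusted p 0.0306, against iEF and -0.87 ± 0.21 (SE), adjusted p 0.00977, against iLuc. HSD17B7 was at 12.8, 19.1 and 19.97 CPM in WT-EF, again between the controls on average, with 0.56 ± 0.18 (SE), adjusted p 0.0330, against iEF and -1.33 ± 0.18 (SE), adjusted p 0.000182, against iLuc. TM7SF2 was at 6.48, 7.66 and 9.96 CPM, with 0.51 ± 0.18 (SE), adjusted p 0.0424, against iEF and -1.26 ± 0.17 (SE), adjusted p 0.000175, against iLuc. For these 3 enzymes WT-EF was called against both controls, but each overlapped iEF through iEF replicate 2. Their calls against iEF were lost without WT-EF replicate 3 (adjusted p 0.127, 0.168 and 0.191). SC5D, at 88.7, 86.1 and 79.8 CPM, also overlapped iEF through iEF replicate 2, at 82.2 CPM. It was called higher than iEF by 0.28 ± 0.09 (SE), adjusted p 0.0242, while its difference from iLuc was -0.10 ± 0.09 (SE), adjusted p 0.478. SCAP, the SREBP escort, was at 18.001, 21.5 and 21.4 CPM in WT-EF against 15.4, 17.5 and 17.4 CPM in iEF, with 0.27 ± 0.09 (SE), adjusted p 0.0389.

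AACS was the listed gene with the largest difference between WT-EF and iEF. Its WT-EF libraries were at 12.8, 11.4 and 13.4 CPM, below every library of the other 4 conditions, and the log2 fold change was -1.18 ± 0.12 (SE), adjusted p 3.89e-06, against iEF and -0.90 ± 0.12 (SE), adjusted p 0.000133, against iLuc. LSS, at 40.8, 37.9 and 54.2 CPM, was below all iEF and all iLuc libraries, with -0.67 ± 0.15 (SE), adjusted p 0.00370, against iEF. MVK, at 9.80, 8.61 and 9.77 CPM, was likewise below both controls, with -0.67 ± 0.24 (SE), adjusted p 0.0457, against iEF. INSIG1 was at 66.1, 45.2 and 68.6 CPM, below all iEF libraries and all iLuc libraries, with -0.62 ± 0.21 (SE), adjusted p 0.0340, against iEF and -1.05 ± 0.21 (SE), adjusted p 0.00254, against iLuc. Thus the cholesterol arm held genes of either direction, and the 4 lower genes included the retention protein of the SREBP pathway.

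DHCR7 shows the other pattern, in which WT-EF stayed with iEF. Its WT-EF libraries were at 20.7, 27.8 and 39.4 CPM, overlapping iEF and far below iLuc, with -0.22 ± 0.19 (SE), adjusted p 0.447, against iEF and -1.71 ± 0.20 (SE), adjusted p 4.20e-05, against iLuc. ACAT2 was at 57.9, 80.2 and 90.9 CPM in WT-EF, also overlapping iEF, with 0.27 ± 0.15 (SE), adjusted p 0.229, against iEF and -1.07 ± 0.15 (SE), adjusted p 0.000263, against iLuc. STARD4, at 47.97, 44.4 and 86.8 CPM, overlapped iEF and was below iLuc by -1.28 ± 0.27 (SE), adjusted p 0.00383. In each of these genes the highest WT-EF library was replicate 3.

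Several fatty acid genes split within WT-EF. FADS1 was at 343, 294 and 909 CPM, so that replicate 3 approached iLuc and the other two lay in or below the range of iEF, with -1.32 ± 0.29 (SE), adjusted p 0.00527, against iLuc and -1.82 (adjusted p 2.60e-05) without replicate 3. FASN was at 89.3, 86.6 and 150.2 CPM and ELOVL6 at 16.3, 16.99 and 31.05 CPM, each with replicate 3 highest. Their log2 fold changes against iLuc were -1.17 ± 0.17 (SE), adjusted p 0.000235, and -1.29 ± 0.20 (SE), adjusted p 0.000471, or -1.41 and -1.54 without replicate 3. ACSS2, at 14.9, 12.9 and 17.5 CPM, showed less spread and was below iLuc by -1.02 ± 0.16 (SE), adjusted p 0.000512.

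The transcription factor genes split in the same way. SREBF1 was at 28.4, 20.3 and 74.95 CPM in WT-EF, where replicate 3 lay just below the iLuc libraries and the others below all iEF libraries, with a log2 fold change of -1.15 ± 0.29 (SE), adjusted p 0.0121, against iLuc. Without that library SREBF1 differed from iLuc by -1.61 (adjusted p 0.000108) and from iEF by -1.15 (adjusted p 0.00141). SREBF2 was at 78.6, 73.4 and 133 CPM, where replicate 3 reached the iLuc level, and neither its difference from iLuc (-0.47 ± 0.18 (SE), adjusted p 0.0853) nor that from iEF (0.35 ± 0.18 (SE), adjusted p 0.178) passed. Without WT-EF replicate 3 the SREBF2 difference from iLuc was -0.69 (adjusted p 0.00555), and without iEF replicate 2 that from iEF was 0.63 (adjusted p 0.0133). The coefficient of variation between libraries, as a median over the 31 genes, was 21.4% in WT-EF and 24.4% in iEF, against 7.54% in iLuc, 10.7% in Δ22 and 8.40% in DAF.

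**Figure D3:**
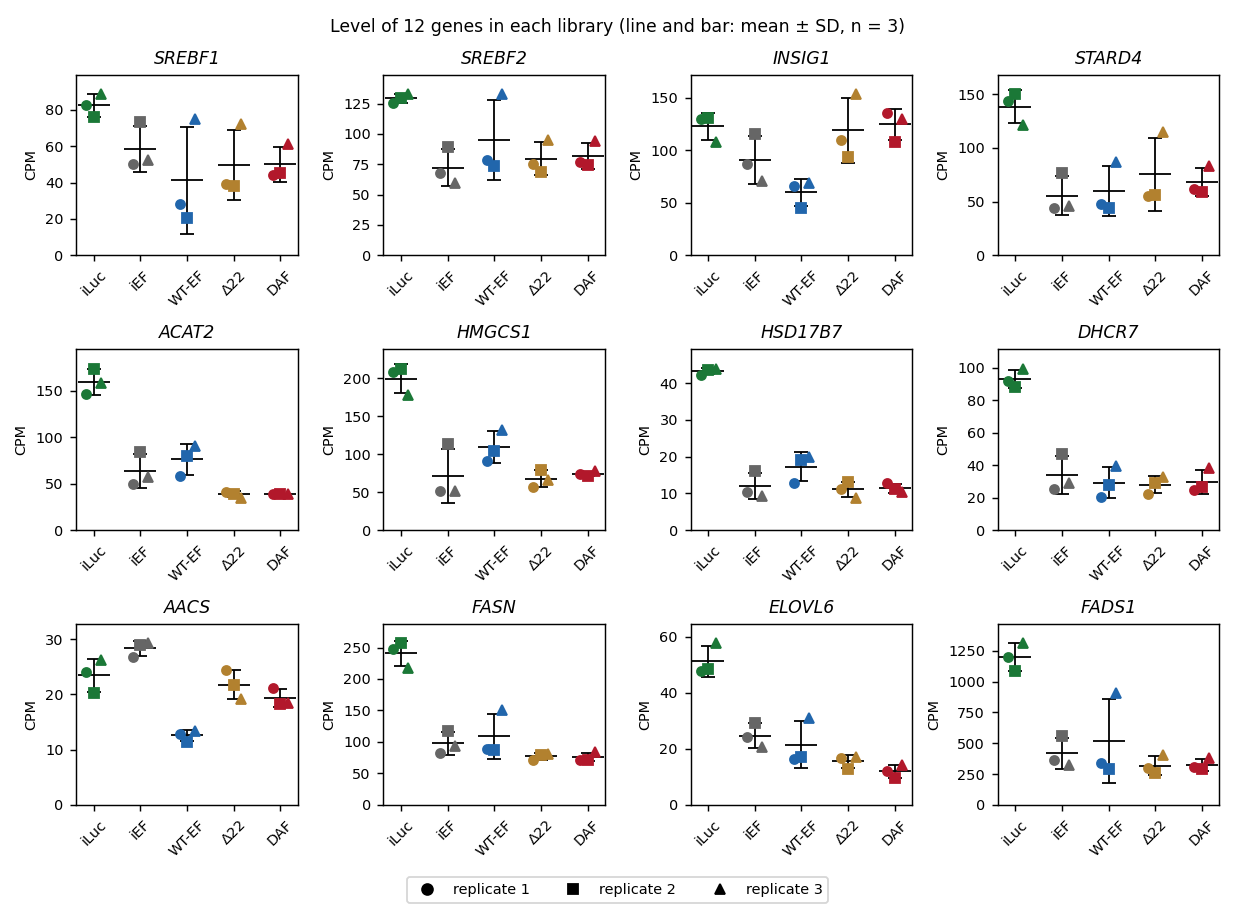
CPM of 12 genes in each library of 5 conditions (circles, squares and triangles for replicates 1, 2 and 3, with lines and bars for mean ± SD, n = 3). The iLuc libraries are highest for enzymes such as HSD17B7 and DHCR7, AACS is lowest in WT-EF, and WT-EF replicate 3 stands above the other WT-EF libraries for SREBF1, SREBF2 and FADS1.

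Of the 27 genes lower in WT-EF than in iLuc, 15 kept their call under all 17 alternative settings, and without replicate 1 of every condition the number called was 15. Against iEF only AACS kept its call under all 17, 1 gene was higher in a fit with no replicate block, and the calls rest on single libraries, since the number higher was 9 without iEF replicate 2, 1 without WT-EF replicate 3, 3 without WT-EF replicate 2 and 0 without iEF replicate 1 or 3, while the number lower was 2 without iEF replicate 2 or without WT-EF replicate 1 or 2 and 10 without replicate 3 of every condition. HMGCS1, HSD17B7 and TM7SF2 were not called without WT-EF replicate 3 (adjusted p 0.127, 0.168 and 0.191), nor MVK and INSIG1 without iEF replicate 2 (adjusted p 0.448 and 0.272).

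Both mutants were then compared with iEF, to ask whether the altered EWS domain leaves any effect on these genes. In Δ22, 1 of the 31 genes was called lower than in iEF and 0 higher, where 0.830% of all genes tested were lower and 0.472% higher. Of the 8285 genes with a mean of at least 500 counts, 180 were lower and 75 higher. At an unadjusted p under 0.05 the counts were 4 lower and 0 higher, and DESeq2 called 2 lower and 0 higher. The median log2 fold change was -0.10 in the cholesterol arm, -0.42 in the fatty acid arm and 0.11 for the regulators, against 0.01 over all genes, and the enzyme arms were at 0.10 and 0.01 without iEF replicate 2. The called gene was ACAT2, at 41.5, 38.8 and 35.02 CPM in Δ22, below all iEF libraries, with -0.71 ± 0.16 (SE), adjusted p 0.0400. The call was lost without any 1 of the iEF libraries, without Δ22 replicate 2 or 3 and in a fit with no replicate block, and without replicate 3 of every condition 6 genes were called lower.

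In DAF, 1 gene was called higher and 3 lower than in iEF, where 5.00% of all genes were higher and 6.19% lower. Of the 8285 genes with a mean of at least 500 counts, 650 were higher and 1184 lower. The median log2 fold change was -0.06 for the cholesterol arm, -0.40 for the fatty acid arm and 0.15 for the regulators, against 0.00 over all genes, and the enzyme arms were at 0.17 and -0.01 without iEF replicate 2. SC5D was the higher gene, at 94.01, 93.6 and 87.99 CPM in DAF, above all iEF libraries, with 0.40 ± 0.09 (SE), adjusted p 0.00892. ELOVL6 was the gene with the largest decrease, at 12.1, 9.58 and 14.2 CPM, below every library of the other 4 conditions except for Δ22, whose values of 16.7, 12.8 and 16.9 CPM overlapped it, and its log2 fold change was -1.08 ± 0.20 (SE), adjusted p 0.00345. ACAT2 was at 39.4, 39.4 and 39.3 CPM, below all iEF libraries, with -0.68 ± 0.16 (SE), adjusted p 0.0115. AACS was at 21.2, 18.3 and 18.5 CPM, also below all iEF libraries, with -0.55 ± 0.12 (SE), adjusted p 0.00676. Without iEF replicate 2 the counts were 4 higher and 1 lower, without iEF replicate 1 or 3 none was higher, without DAF replicate 2 or 3 1 was lower, and without replicate 3 of every condition 7 were lower.

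None of the other genes given by library above was called against iEF in either mutant. HSD17B7 was at 11.3, 13.1 and 8.83 CPM in Δ22 and 12.7, 11.1 and 10.3 CPM in DAF. HMGCS1 was at 57.1, 79.03 and 66.2 CPM in Δ22 and 73.6, 71.5 and 77.3 CPM in DAF. FADS1 was at 295, 257 and 404 CPM in Δ22 and 304, 288 and 378 CPM in DAF. All of these values were below every iLuc library. DHCR7 was at 22.2, 29.2 and 32.7 CPM in Δ22 and 24.6, 26.3 and 38.3 CPM in DAF. TM7SF2 was at 5.92, 6.47 and 6.29 CPM in Δ22 and 5.55, 5.59 and 5.33 CPM in DAF. FASN was at 71.2, 79.9 and 81.1 CPM in Δ22 and 71.8, 71.7 and 83.5 CPM in DAF. These 3 enzymes, too, were below iLuc in every mutant library. LSS was at 64.5, 57.9 and 67.4 CPM in Δ22 and 63.6, 51.9 and 62.7 CPM in DAF. MVK was at 12.6, 9.67 and 6.93 CPM in Δ22 and 10.96, 9.47 and 9.56 CPM in DAF. ACSS2 was at 16.9, 18.7 and 19.5 CPM in Δ22 and 18.3, 18.1 and 22.6 CPM in DAF. LSS, MVK and ACSS2 were likewise under the lowest iLuc library in both mutants. SC5D was at 77.2, 82.6 and 74.8 CPM in Δ22, below iLuc, and AACS was at 24.4, 21.7 and 19.1 CPM in Δ22, within the range of iLuc or close to it.

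The regulators varied more. SREBF1 was at 39.3, 38.2 and 72.000 CPM in Δ22 and 44.1, 45.2 and 61.3 CPM in DAF. SREBF2 was at 74.9, 68.8 and 94.9 CPM in Δ22 and 76.9, 74.1 and 93.96 CPM in DAF. STARD4 was at 55.3, 56.6 and 115 CPM in Δ22 and 61.6, 59.4 and 83.5 CPM in DAF. For all 3 genes replicate 3 was the highest library of either mutant, and none of these values reached the iLuc libraries. INSIG1 was at 110.1, 93.3 and 154 CPM in Δ22 and 136, 108 and 130.3 CPM in DAF, which overlapped both iLuc and iEF.

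WT-EF was also set against DAF directly, to ask where the tyrosine mutations go with a difference in these genes. WT-EF had 6 of 31 genes called higher and 4 lower than DAF, where 12.4% of all genes were higher and 16.1% lower. Of the 8285 genes with a mean of at least 500 counts, 1974 were higher and 2507 lower, so the 6 and 4 are no excess over such genes. The higher genes were the cholesterol enzymes ACAT2, FDFT1, TM7SF2 and HSD17B7 and the fatty acid enzymes FASN and ELOVL6. ACAT2 had the largest increase, a log2 fold change of 0.94 ± 0.16 (SE), adjusted p 0.000383, and ELOVL6 followed at 0.82 ± 0.20 (SE), adjusted p 0.00679. The lower genes were LSS, INSIG1, AACS and ACLY, of which INSIG1 had the largest decrease, at -1.06 ± 0.21 (SE), adjusted p 0.00134. For INSIG1 every DAF library was above every WT-EF library. Medians of the arms were 0.14 for cholesterol and 0.20 for fatty acids on the log2 scale, and the fatty acid median was -0.23 without WT-EF replicate 3. The cholesterol arm depended on that library as well, since FDFT1, TM7SF2 and HSD17B7 were not called without it (adjusted p 0.277, 0.186 and 0.161). Nor was FASN (adjusted p 0.224). The number higher was 2 without WT-EF replicate 3 or without DAF replicate 2 or 3, and the number lower was 2 without WT-EF replicate 1 or 2, without DAF replicate 3 or with no replicate block. ACAT2, ELOVL6, INSIG1 and AACS kept their calls under all 17 alternatives.

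In the fit of all 15 libraries, DAF and Δ22 did not differ in any listed gene by edgeR's test. Of all genes, 0.948% were called higher in DAF and 0.379% lower. At an unadjusted p under 0.05, 1 gene was higher and 0 were lower, and DESeq2 called none in either direction. Fitted differences ran from -0.38 for ELOVL6 to 0.34 for FADS2 on the log2 scale.

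Other genes of lipid metabolism, in 6 lists, show how neighbouring steps compared with the listed enzymes. Their counts stand beside the shares of all genes given above, which are repeated here for genes with a mean of at least 500 counts, namely 27.3% higher and 38.1% lower in iLuc, and 19.5% higher and 31.9% lower in WT-EF, against iEF. Of 11 further genes of sterol and isoprenoid synthesis, 9 were higher in iLuc than in iEF and 1 was lower, with a median log2 fold change of 0.74. LBR, a sterol C14 reductase like TM7SF2, differed by 1.34 ± 0.09 (SE), adjusted p 2.76e-08, and ERG28, a scaffold for sterol C4 demethylation, by 1.30 ± 0.12 (SE), adjusted p 6.43e-07. Against iEF, WT-EF had 5 of the 11 called higher and 1 lower, and against iLuc 4 were lower. PDSS1, which makes the polyprenyl chain of coenzyme Q, was at 66.02, 63.6 and 63.5 CPM in WT-EF and 33.1, 26.98 and 33.4 CPM in iEF, with 1.05 ± 0.10 (SE), adjusted p 1.69e-06.

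Of 10 genes of SREBP processing and turnover, 1 was higher and 5 were lower in iLuc, where genes with a mean of at least 500 counts also leaned lower (38.1%), with a median log2 fold change of -0.31. ERLIN1, an endoplasmic reticulum protein that acts with INSIG proteins and SCAP, fell by 0.50 in iLuc and by 0.77 in WT-EF on the log2 scale, and MBTPS1, the site-1 protease that cleaves SREBPs, fell by 0.37 and 0.40. In WT-EF against iEF, 1 of the 10 genes was called higher and 3 lower, close to the 31.9% of such genes.

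Of 16 genes of sterol uptake, transport, storage and efflux, 3 were called higher and 11 lower in iLuc than in iEF, with a median log2 fold change of -0.49. The shares were 19.5% and 22.1% of all genes tested, and 27.3% and 38.1% of genes with a mean of at least 500 counts. ABCA1, the cholesterol efflux transporter, was at 6.9996, 8.02 and 9.9999 CPM in iLuc, 26.4, 41.7 and 40.1 CPM in iEF and 4.29, 2.09 and 9.32 CPM in WT-EF. Its log2 fold change against iEF was -2.15 ± 0.38 (SE), adjusted p 0.000324, in iLuc and -3.01 ± 0.40 (SE), adjusted p 4.72e-05, in WT-EF, and no WT-EF library exceeded the highest iLuc library. NPC2, which moves cholesterol out of lysosomes, fell by 1.40 in iLuc and 1.17 in WT-EF on the log2 scale. ABCG1, another efflux transporter, was higher in iLuc, at 8.47, 9.93 and 7.82 CPM against 1.29, 1.62 and 1.89 CPM in iEF, with 2.61 ± 0.61 (SE), adjusted p 0.00278. In WT-EF against iEF, 1 of the 16 genes was higher and 10 were lower. The shares were 12.9% and 17.0% of all genes tested, and 19.5% and 31.9% of genes with a mean of at least 500 counts. Whether the list differs from the listed enzymes was not tested.

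Of 24 other genes of fatty acid synthesis and elongation, 10 were higher and 6 lower in iLuc than in iEF, and 6 higher and 7 lower in WT-EF, of which the WT-EF counts are near the shares of genes with a mean of at least 500 counts (19.5% and 31.9%). MLXIPL, which encodes the carbohydrate-responsive factor ChREBP, had the largest difference in iLuc, at 3.24, 2.69 and 2.63 CPM against 0.315, 0.270 and 0.174 CPM in iEF, with 3.47 ± 0.40 (SE), adjusted p 5.54e-06. WT-EF was between, at 0.858, 0.661 and 1.49 CPM. Of 15 tested genes of fatty acid activation and glycerolipid synthesis, 5 were higher and 4 lower in iLuc, and 5 were lower in WT-EF. ACSL5, an acyl-CoA synthetase, was at 0.825, 0.757 and 1.01 CPM in iLuc and 21.5, 21.5 and 18.7 CPM in iEF, with -4.57 ± 0.52 (SE), adjusted p 5.39e-06, the largest difference of all lists. Its WT-EF libraries spread from the iEF level downwards, at 15.9, 8.77 and 2.16 CPM.

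Genes of fatty acid oxidation had 4 of 21 higher and 8 lower in iLuc than in iEF, close to or below the shares among genes with a mean of at least 500 counts (27.3% and 38.1%), with a median log2 fold change of -0.13, and 2 higher and 10 lower in WT-EF, with a median of -0.36. CPT1A, which admits fatty acids to mitochondria, was at 16.7, 9.54 and 12.98 CPM in iLuc, 111, 55.9 and 83.8 CPM in iEF and 75.3, 48.7 and 14.6 CPM in WT-EF, with -2.68 ± 0.35 (SE), adjusted p 1.96e-05, in iLuc against iEF. PPARA, a nuclear receptor that drives this pathway, was at 5.04, 5.33 and 4.03 CPM in iLuc, 20.4, 21.4 and 16.5 CPM in iEF and 6.45, 3.88 and 4.15 CPM in WT-EF. For PPARA, WT-EF lay with iLuc, since its log2 fold change was -2.02 ± 0.15 (SE), adjusted p 8.82e-08, in iLuc and -2.02 ± 0.15 (SE), adjusted p 3.39e-07, in WT-EF against iEF.

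**Figure D4:**
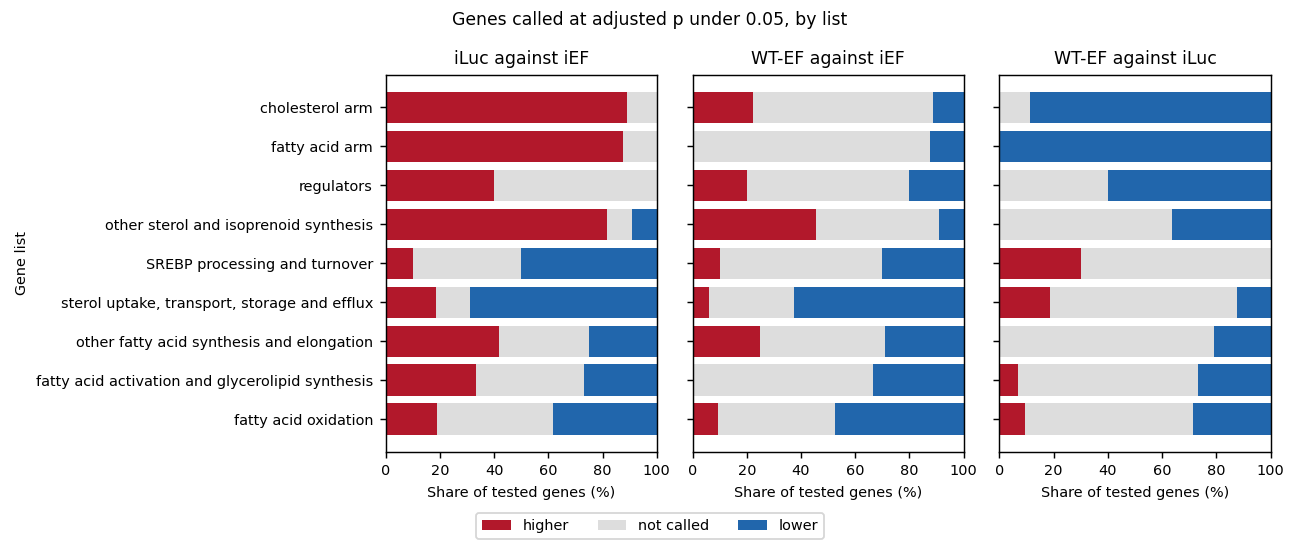
Share of tested genes (%) called higher, not called or called lower at an adjusted p under 0.05 in 9 gene lists, for iLuc against iEF, WT-EF against iEF and WT-EF against iLuc. Both enzyme arms are mostly higher in the first panel and mostly lower in the last, whereas sterol uptake, transport, storage and efflux is mostly lower in the first and second panels.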

How the data were processed

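The 15 RNA-seq libraries of A673 cells were grouped by the labels, and replicate numbers came from the same labels. Infection with the shRNA was on day 1 and with the cDNA on day 5, and cells were kept in puromycin (2 µg/mL) and hygromycin B (400 µg/mL) until day 16. Alignment by the authors was with STAR on hg19, followed by htseq-count per gene in its intersection-strict mode, and the deposited counts are whole numbers without normalization. They also deposited estimated counts after adjustment with ComBat, decimal values that were used here in 1 alternative after rounding. A table of the authors' own fold changes and p-values, with gene symbols, was not used, nor were 3 columns of the count table that match no sample here.

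The 32 genes and the 6 further lists (98 genes) were chosen with earlier results of these data known. In R 4.3.3, edgeR 4.0.16 was fitted once to all 15 libraries, with TMM normalization, genes with a mean of at least 1 count per library (28793 genes), condition, and replicate number as a block, since the study adjusted each replicate set for batch. Comparisons used the quasi-likelihood test with Benjamini-Hochberg adjustment over all genes tested and a cutoff of 0.05. The SE is the absolute log2 fold change divided by the square root of the F statistic. CPM values are counts scaled by the TMM-normalized library size, and CPM per kb uses exon lengths of GENCODE on GRCh37. The script was tested on simulated counts with known changes. Replicates of a condition differed by more than counting noise in all 15 pairs, with a chi-square per gene from 12.9 to 83.2. Deviations from condition means were correlated between libraries of the same number (median r 0.181, range -0.189 to 0.796, 30 pairs, 21 of them over 0.1). By these values the numbers share some but not all of their deviation. Between different numbers the median r was -0.0889 (60 pairs). Since the deviations within a condition cancel out, that median largely follows from the first and adds no support for pairing by number.

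Values in every library are given for SREBF1, SREBF2, INSIG1, the first and last gene listed of each arm, and genes among the 8 with the largest absolute log2 fold change called in a comparison with iEF. From each further list, up to 3 genes with the largest called fold change in iLuc or WT-EF against iEF were eligible to be named. Alternatives were DESeq2 1.42.0, its size factors, ComBat-adjusted counts, other filters, no replicate block, fits of just the 6 libraries in a comparison, and leaving out each replicate or library. At these depths 1 count is about 0.03 CPM. Counting noise was not compared with replicate spread gene by gene. It weighs more for genes with few counts, such as EPCAM, with 3, 4 and 5 in iEF, and CYP51A1, with 48, 54 and 25. Some genes of the further lists are counted but not reported here by name.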

Additional observations from a re-analysis of the deposited data

How the results depend on the processing

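The direction of each call among the 31 genes held under its 17 alternatives, since of 1292 values for 76 gene results 1098 kept the call, 194 lost it and 0 reversed. With no replicate block, genes higher in WT-EF than in iEF fell to 1 from 5, genes lower in Δ22 than in iEF to 0 from 1, and genes lower in WT-EF than in DAF to 2 from 4, and the other counts of the 7 comparisons stayed within 1.5 times. Correlations within a replicate number did not pass 0.1 in all pairs, so that the block rests on the study's own batch adjustment.

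Requiring also a change over 2-fold left 15 genes higher in iLuc than in iEF, 14 lower in WT-EF than in iLuc, 0 higher and 1 lower in WT-EF against iEF, 0 lower in Δ22 against iEF, 0 higher and 1 lower in DAF against iEF, and 0 higher and 1 lower in WT-EF against DAF. With only the 6 libraries compared, WT-EF against iEF gave 2 higher and 2 lower, and DAF against Δ22 gave 2 higher and 1 lower. Over all genes, these fits called 6595 of 28982 and 2744 of 28743 in either direction. Without a filter on low counts, 6 genes were lower in Δ22, and 2 were higher and 7 lower in DAF, against iEF. With a mean of at least 10 counts, 2 genes were lower in WT-EF and 0 in Δ22 against iEF. For Δ22 against iEF, DESeq2 gave 2 lower and its size factors in edgeR gave 0. DESeq2 on the ComBat-adjusted counts called 1 gene lower in iLuc than in iEF. Without iEF replicate 2 and WT-EF replicate 3, an alternative chosen after seeing the data, 5 genes were higher in DAF than in iEF. The cause of these shifts was not tested.

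Leaving out each replicate or library gave 18 to 29 genes higher and 0 to 1 lower for iLuc against iEF, 0 to 9 higher and 1 to 10 lower for WT-EF against iEF, 0 higher and 0 to 6 lower for Δ22 against iEF, 0 to 4 higher and 0 to 7 lower for DAF against iEF, 0 higher and 15 to 29 lower for WT-EF against iLuc, 2 to 7 higher and 2 to 6 lower for WT-EF against DAF, and 0 in either direction for DAF against Δ22. The call lost under most alternatives was that of SCAP in WT-EF against iEF (12 of 17), followed by LSS in WT-EF against DAF (10 of 17), and 3 libraries per condition limit what can be called.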
